A study of Mus musculus with 4 samples.

Results

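The genes described here are 10 genes of blood vessel growth: Vegfa, Kdr, Flt1, Apln, Aplnr, Esm1, Angpt2, Tek, Plvap and Dll4. They were chosen by name, and all 10 were found once in each of the 4 single-cell RNA sequencing libraries, among 32285 genes. The study asked how interleukin-1 signalling shapes inflammation in mouse pancreatic cancer. The groups were a normal pancreas, a pancreas tied off by suture so that the occluded duct induces pancreatitis (the ligated pancreas), and 2 tumours grown from KPC cells, here called the control tumour and the treated tumour. KPC cells are mouse pancreatic cancer cells, and they were injected into the ligated pancreas, so both tumour groups also carry the ligature. The tumour-bearing mice were injected into the abdominal cavity every week with saline (control) or with AF12198, a peptide that blocks the interleukin-1 receptor IL1R1, and tissue was harvested at 4 weeks. Strain, sex, age and the number of mice behind a library are not stated in the labels used here.

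Each group was 1 library, so no difference has a replicate check and nothing was tested. Values rest on unique molecular identifiers (UMIs, each standing for a captured RNA molecule), summed over the cells of a class and given as CPM, the UMIs of a gene per 1000000 UMIs of that class. Square brackets hold exact 95% intervals, which reflect only the error of counting molecules. Unless stated, values run from the normal and the ligated pancreas to the control and the treated tumour. The libraries kept 1769, 1124, 19288 and 18850 cells, with median totals of 1589, 2216, 2041 and 2296 UMIs and median mitochondrial shares of 2.16, 1.25, 5.53 and 3.95%. Between 1 and 91 cell barcodes were shared by a pair of libraries, at most 0.979% of the smaller library. Blood vessel endothelial-like cells, which raised 12 of 12 endothelial markers (Pecam1, Cdh5 and others), numbered 304, 92, 397 and 311, at medians of 1402, 1532, 2782 and 3921 UMIs. Tumour cells carry no label. The 2 epithelial clusters with stomach-type markers (Tff1, Cldn18 and others) held 0, 5, 1194 and 1101 cells and are called gastric-type epithelial-like.

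These genes belong to linked signalling systems of the vessel wall. Vegfa is the main growth factor for blood vessels and is made by tissue cells and leukocytes that sense low oxygen or inflammation. Kdr (VEGFR2) is its signalling receptor on endothelial cells, and Flt1 (VEGFR1) binds it tightly and acts largely as a decoy. Tip cells lead a growing vessel sprout and are known to express Apln, Esm1, Angpt2 and the Notch ligand Dll4, through which they keep neighbouring cells from becoming tip cells. Aplnr is the receptor for the peptide apelin encoded by Apln. Angpt2 binds Tek (Tie2), the receptor that keeps vessels stable, and Plvap forms the diaphragms of fenestrated capillaries, a vessel type typical of the pancreas.

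The windows of 250 bases before the gene start are shown for Vegfa, the ligand, and for Apln and Esm1, the tip cell genes with a window in the table among the 3 (with Angpt2) that differed most between the vessel cells of the ligated pancreas and the control tumour. They come from RefSeq (build GRCm38.p6), whose table matched 7 of the 10 genes with 8 windows (Vegfa has 2). Capitals mark GGAA, or TTCC on the other strand, the core of the sites bound by ETS family factors, which are active in endothelial cells.

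Apln, chrX:48034854-48035103, minus strand: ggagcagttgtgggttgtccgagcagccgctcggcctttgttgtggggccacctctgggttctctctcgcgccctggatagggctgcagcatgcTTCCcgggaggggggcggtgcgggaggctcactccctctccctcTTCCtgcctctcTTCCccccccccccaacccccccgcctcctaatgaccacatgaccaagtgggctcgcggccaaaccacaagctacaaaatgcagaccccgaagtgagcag

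Esm1, chr13:113209409-113209658, plus strand: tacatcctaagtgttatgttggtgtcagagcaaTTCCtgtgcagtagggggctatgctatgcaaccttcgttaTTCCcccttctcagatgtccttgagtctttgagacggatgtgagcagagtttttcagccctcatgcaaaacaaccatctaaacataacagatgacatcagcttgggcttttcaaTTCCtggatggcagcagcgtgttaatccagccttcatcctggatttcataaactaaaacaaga

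Vegfa, chr17:46032378-46032627, minus strand: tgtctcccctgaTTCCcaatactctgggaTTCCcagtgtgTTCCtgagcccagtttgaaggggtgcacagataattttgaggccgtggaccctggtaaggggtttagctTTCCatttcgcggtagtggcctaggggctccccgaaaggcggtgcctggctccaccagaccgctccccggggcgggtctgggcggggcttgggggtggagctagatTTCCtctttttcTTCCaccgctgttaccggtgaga

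The letters GGAA or TTCC occurred 3 times before Apln, at 156, 112 and 100 bases before the start. Before Esm1 they occurred 3 times, at 217, 177 and 63 bases, and before this start of Vegfa 6 times. All 8 windows held the core, but so did 93.4% of 32851 promoter windows of the same length, so its presence does not set these genes apart. ACGTG or CACGT, searched on both strands as the core of the hypoxia response element, was found in 1 of the 8 windows, that of the other Vegfa start, and in 16.6% of all windows. On the GENCODE vM21 annotation of the same build the genes are protein-coding. Vegfa lies at chr17:46016993-46032369, Apln at chrX:48025146-48034853 and Esm1 at chr13:113209659-113218098. Among the receptors, Kdr lies at chr5:75932827-75978458, Flt1 at chr5:147561604-147726011, Aplnr at chr2:85136225-85139923 and Tek at chr4:94739289-94874976. Angpt2 lies at chr8:18690263-18741562, Plvap at chr8:71497765-71511752 and Dll4 at chr2:119325784-119335962.

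Of the 10 genes, 7 (Kdr, Flt1, Aplnr, Esm1, Tek, Plvap and Dll4) stood highest in blood vessel endothelial-like cells in each of the 4 libraries, among classes with at least 25 cells. This held under each of the 6 clusterings made. The other genes, Vegfa, Apln and Angpt2, did not follow this pattern in every library. Vegfa stood highest in duct-like cells of the normal pancreas, in macrophage/monocyte-like cells of the ligated pancreas, in neutrophil-like cells of the control tumour and in mast or basophil-like cells of the treated tumour. Angpt2 stood higher in lymphatic than in blood vessel endothelial-like cells of the ligated pancreas and both tumours. Apln was highest in fibroblast-like cells of the ligated pancreas, though within counting error of vessel cells (12.6 [8.06-18.7] against 5.27 [0.133-29.3] CPM).

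**Figure D1:**
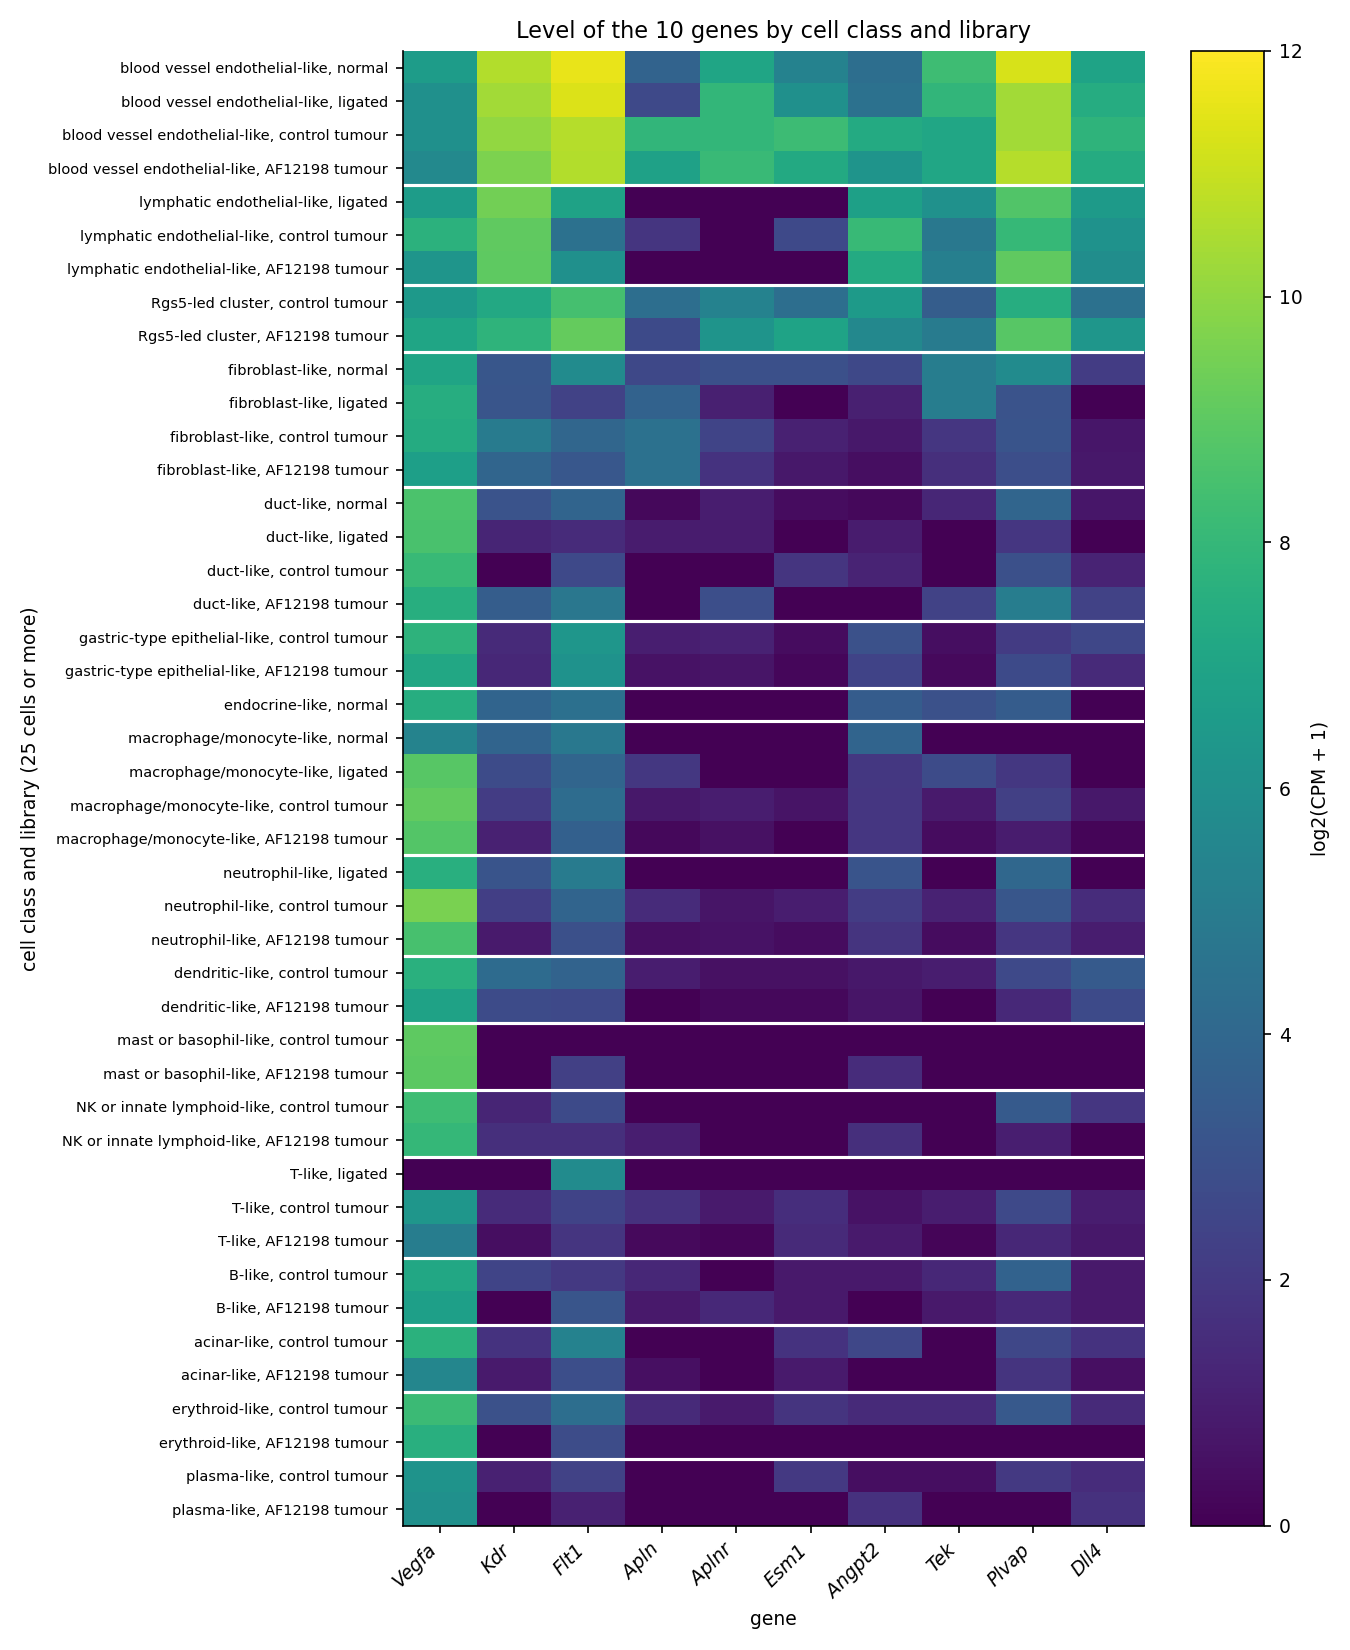
Level of the 10 genes, as log2(CPM + 1), in each cell class with at least 25 cells, by library. Each row is a class in a library, each column a gene, and brighter means higher. Kdr, Flt1 and Plvap are brightest in the blood vessel endothelial-like rows of all 4 libraries, while Vegfa is spread over myeloid, epithelial and stromal rows.

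RNA set free from broken cells gives UMIs to cells that do not make a gene, so T-like and B-like cells were taken as a background for the vessel genes. They numbered 19, 60, 3044 and 2955, with medians of 1750, 836, 1803 and 2507 UMIs. Vegfa gave 225 UMIs per 1000 of these lymphocytes in the control tumour and 142 in the treated tumour, at 90.9 and 43.0 CPM. Of the other genes none gave more than 16.1 (Plvap) per 1000 in the control tumour or 10.8 (Flt1) in the treated tumour. In the ligated pancreas Flt1 gave 3 UMIs in 60 lymphocytes, and in the normal pancreas Vegfa and Kdr gave 1 each in 19. Lymphocytes can express Vegfa themselves, so its level there is an upper estimate of free RNA.

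The receptors of Vegfa were well detected in the vessel cells of all 4 libraries. Kdr stood at 1556 [1464-1653], 1306 [1149-1479], 1066 [1017-1117] and 785 [744-828] CPM. Each library was lower than the one before it, and the steps were small: 0.839 [0.728-0.965] for ligated over normal, 0.816 [0.714-0.936] for control tumour over ligated and 0.737 [0.686-0.791] for AF12198-treated over control tumour. Flt1 stood at 3111 [2980-3247], 2681 [2453-2924], 1636 [1575-1699] and 1568 [1510-1628] CPM. The wide step lay between ligated pancreas and control tumour, which was 1.64-fold lower (ratio 0.610 [0.555-0.672]), whereas the treated tumour differed little from the control tumour (0.959 [0.909-1.01]).

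Vegfa itself was low in vessel cells, at 99.7 [77.5-126], 63.2 [32.7-110], 63.5 [52.0-76.9] and 49.0 [39.2-60.5] CPM. The tumour values lay near or below the CPM of Vegfa in lymphocytes of the same libraries, so by CPM vessel cell Vegfa in the tumours is not told apart from background. In the control tumour 17.6% [14.0-21.7] of vessel cells had a Vegfa UMI, against 14.0% [12.7-15.2] of lymphocytes. In the treated tumour the shares were 17.7% [13.6-22.4] and 7.17% [6.27-8.16]. Such shares follow depth, which was higher in vessel cells (medians of 2782 and 3921 UMIs) than in lymphocytes (1803 and 2507). In the normal pancreas the shares were 14.1% [10.4-18.6] of vessel cells and 5.26% [0.133-26.0] of 19 lymphocytes, so background is not told apart there either. From tissue genes found in lymphocytes, free RNA was put at 682, 225, 172 and 258 UMIs per cell in the 4 libraries. Subtracting the pooled profile of each library was 1 of the alternatives, and the part of free RNA in vessel cell Vegfa was not tested otherwise. The ratio of ligated over normal was 0.634 [0.312-1.18], from 12 UMIs against 68.

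Among the tip cell genes, Apln was nearly absent from vessel cells outside tumours, at 13.2 [6.04-25.1] CPM in the normal pancreas (9 UMIs, in 2 cells) and 5.27 [0.133-29.3] in the ligated pancreas (1 UMI). It reached 238 [215-263] CPM in the control tumour and 115 [99.2-132] in the treated tumour. The tumour intervals lay above both pancreas intervals and apart from each other. The ratio of control tumour over ligated was 45.3 [8.08-1792], wide because it rests on 1 UMI, and the treated tumour stood 2.08-fold lower than the control tumour (0.480 [0.403-0.571]).

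Esm1, a proteoglycan secreted by tip cells, stood at 39.6 [26.1-57.6], 63.2 [32.7-110], 302 [276-330] and 156 [138-176] CPM. The order was the same as for Apln within the tumours, and the pancreas intervals overlapped each other. Control tumour over ligated was 4.78 [2.71-9.31], and the treated tumour stood 1.93-fold lower than the control tumour (0.517 [0.445-0.600]). The 12 Esm1 UMIs of the ligated pancreas came from 2 cells, 1 of which held 10, and ligated over normal (1.60 [0.736-3.26]) turned below 1 when each cell had equal weight (0.626) or when lymphatic cells were kept in (0.906).

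Angpt2, the ligand that loosens Tek-stabilised vessels, stood at 19.1 [10.2-32.6], 21.1 [5.74-53.9], 161 [142-181] and 73.5 [61.4-87.3] CPM. Its tumour levels lay above both pancreas intervals, with the control tumour the higher. Control tumour over ligated was 7.64 [2.95-28.2], from 4 ligated UMIs, and the treated tumour stood 2.19-fold lower (0.457 [0.367-0.566]). Dll4 stood at 123 [98.3-153], 174 [120-244], 223 [201-247] and 164 [146-184] CPM. Its intervals overlapped between neighbouring libraries except between the tumours, where AF12198-treated over control was 0.735 [0.628-0.860].

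The receptors Aplnr and Tek ran in opposite directions. Aplnr stood at 133 [107-164], 248 [182-329], 244 [221-269] and 284 [259-310] CPM, so that the normal pancreas was low and the other libraries close together. Ligated over normal was 1.85 [1.28-2.67]. Tek stood at 307 [266-351], 237 [173-317], 135 [118-154] and 136 [119-154] CPM. Both tumours lay below both pancreas samples, and the control tumour was 1.76-fold lower than the ligated pancreas (0.569 [0.412-0.803]).

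Plvap, the fenestration gene, stood at 2450 [2334-2570], 1311 [1154-1485], 1292 [1238-1348] and 1602 [1544-1663] CPM. The normal pancreas was highest and the ligated pancreas 1.87-fold lower (0.535 [0.467-0.612]). The 2 libraries held different vessel subclusters, named from their markers. Capillary-type subcluster 0 made up 19.7% of normal and 8.70% of ligated vessel cells and gave 50.4 and 28.1% of their Plvap UMIs. The venous-type one made up 7.57 and 22.8% of cells and gave 12.6 and 33.3% of Plvap UMIs. The arterial-type one made up 8.55 and 21.7% of cells and gave 3.53 and 7.63%. The part of this mix in the Plvap ratio was not tested. The ligated pancreas and control tumour did not differ beyond counting error (0.985 [0.864-1.13]), and AF12198-treated over control was 1.24 [1.17-1.31].

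**Figure D2:**
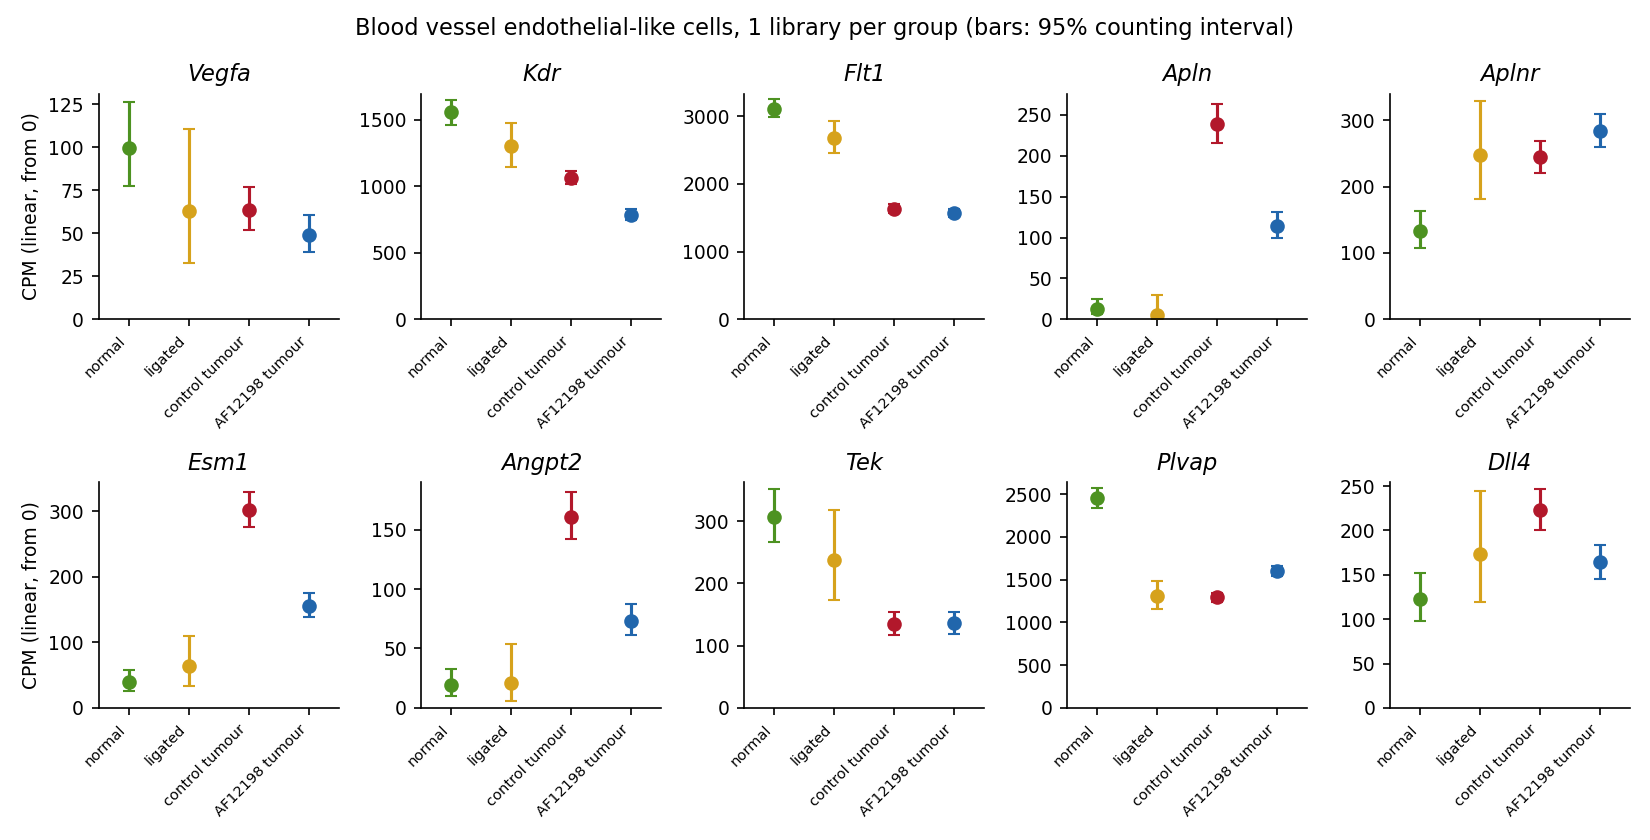
CPM of each gene in blood vessel endothelial-like cells of the 4 libraries, 1 panel per gene; points are the library values and bars the 95% counting interval. Apln, Esm1 and Angpt2 are low in both pancreas libraries and highest in the control tumour, while Flt1 and Tek run the other way.

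All 10 genes were measured in vessel cells, which here means at least 5 UMIs in the 2 libraries compared and 5 CPM in 1 of them. Past a difference of 1.5-fold, ligated over normal had 2 genes higher (Aplnr and Esm1) and 3 lower (Vegfa, Apln and Plvap), against 30.6% of 10296 measured genes higher and 24.8% lower. Control tumour over ligated had 3 higher (Apln, Esm1 and Angpt2) and 2 lower (Flt1 and Tek), against 31.4% and 31.7% of 11249 genes. AF12198-treated over control tumour had 0 higher and 3 lower (Apln, Esm1 and Angpt2), against 12.3% and 27.8% of 10686. These counts are near the shares of all genes and are no result about the group. In size, Apln, Esm1 and Angpt2 stood more than 4-fold higher in control tumour than in ligated pancreas, which 3.64% of measured genes did.

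**Figure D3:**
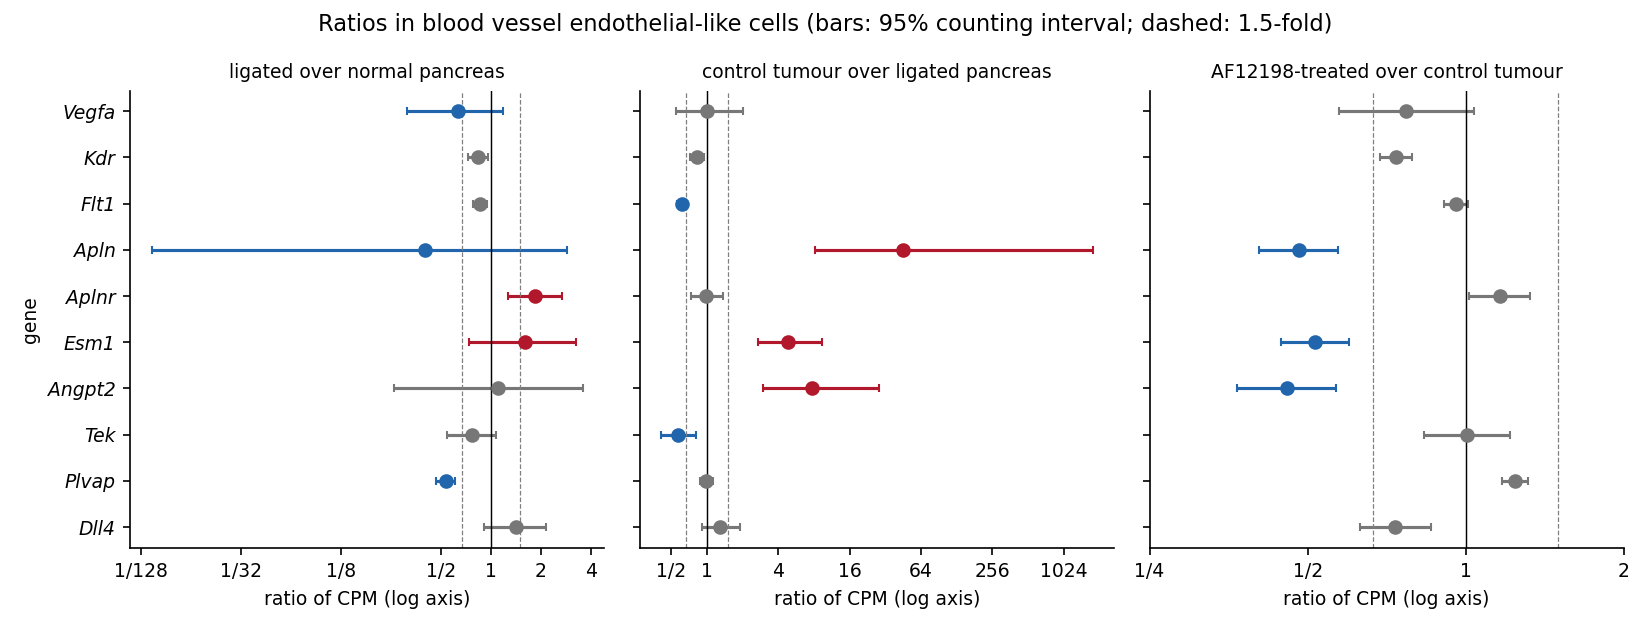
Ratio of CPM in blood vessel endothelial-like cells for the 3 comparisons, on a log axis, with 95% counting intervals and dashed lines at 1.5-fold. Points past 1.5-fold are red where higher and blue where lower; the 3 tip cell genes Apln, Esm1 and Angpt2 are red for control tumour over ligated and blue for treated over control tumour.

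The median measured gene of the class was not at 0: its log2 ratio was 0.11, -0.03 and -0.22 in the 3 comparisons. Relative to it, the treated tumour still stood lower than the control tumour in Angpt2 (-0.90), Apln (-0.83) and Esm1 (-0.72), and higher in Plvap (0.53) and Aplnr (0.44). Kdr and Dll4, also lower in the treated tumour, differed less between the tumours on this scale, because the median gene was lower there too. On this scale the share of all genes past 1.5-fold became 18.8% higher and 17.6% lower. When cells were weighted equally Esm1 no longer passed 1.5-fold between the tumours (0.70), while Apln (0.32) and Angpt2 (0.43) did.

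The UMIs of Apln, Esm1 and Angpt2 came from few cells. In the control tumour 10 cells held 52.7% of Esm1, 52.3% of Angpt2 and 39.1% of Apln UMIs, and in the treated tumour 62.8, 55.0 and 61.2%. The shares were lower for the tip cell gene Dll4, at 28.7 and 21.5%, and for Flt1, at 17.5 and 16.0%. A single cell held 79 of 499 Esm1 UMIs in the control tumour and 83 of 274 in the treated tumour.

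The share of vessel cells with a UMI of Apln was 0.658, 1.09, 24.7 and 15.4%, and that of Esm1 was 7.24, 2.17, 21.4 and 22.2%. Such shares follow depth, which was higher in the tumours, so each cell was thinned to 1000 UMIs, leaving 183, 61, 375 and 289 cells and dropping 121, 31, 22 and 22 shallower ones. Apln was then found in 0.546, 0, 13.3 and 6.57% of cells and Esm1 in 5.46, 1.64, 12.3 and 12.8%; 0 of 61 cells allows a share of cells with a UMI of up to 4.92%, taken as 3 counts of 61, or 5.87% by the exact interval. The thinning was repeated 50 times on the same cells, so its ranges show only the error of the draw. Apln ranged from 11.2 to 15.2% in the control tumour and from 3.81 to 8.30% in the treated tumour, without overlap. For Esm1 the ranges were 10.4 to 14.9% and 8.30 to 12.8%, which overlap, as did those of Angpt2, 6.13 to 11.7% and 2.08 to 6.57%. The exact intervals of the Apln shares in the tumours, [10.1-17.2] and [4.00-10.1], just overlapped. Dll4 was found in 12.0, 18.0, 14.7 and 14.2% of thinned cells.

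Cells with a UMI of at least 2 of the 4 tip cell genes Apln, Esm1, Angpt2 and Dll4 made up 1.09% [0.133-3.89], 1.64% [0.0415-8.80], 9.33% [6.59-12.7] and 5.88% [3.46-9.25] of thinned cells. Without thinning the shares were 3.95, 3.26, 27.5 and 25.7%. The control tumour lay above the normal pancreas beyond counting error, and the intervals of the tumours overlapped. In a single thinning to 2000 UMIs, which 265 and 240 tumour cells reached, they did not: the shares were 20.8% [16.0-26.1] in the control and 9.17% [5.83-13.5] in the treated tumour. With lymphatic clusters kept, another single thinning gave 8.87% [6.44-11.8] and 3.13% [1.51-5.69]. The treated count was 10 of 319 cells there and 17 of 289 without these clusters. Added cells cannot remove positive ones, so the random draw differed and the effect of the setting was not told apart. Over 50 repeats at 1000 UMIs without lymphatic clusters the share ranged from 6.4 to 11.7% in the control tumour. It ranged from 2.77 to 7.96% in the treated tumour, so the ranges overlapped.

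Markers of other cell types differed between these vessel cells too. Summed over each list, plasma cell markers stood at 89.5, 269, 1581 and 283 CPM, macrophage markers at 845, 532, 1153 and 468, erythroid markers at 1.47, 0, 2579 and 2272 and acinar markers at 3166, 2381, 49.0 and 363. Fibroblast markers stood at 153, 558, 402 and 67.2 CPM and endocrine markers at 2272, 163, 51.4 and 40.5. Cell cycle markers stood at 58.7, 42.1, 737 and 432 CPM, while the 12 endothelial markers summed to 7911, 7458, 7989 and 8018. Single endothelial markers were not level: Eng stood at 1241, 1038, 368 and 870 CPM, Cd93 at 461, 727, 1247 and 1097 and Cldn5 at 66.0, 57.9, 171 and 234. Without the vessel subclusters that raised markers of another class, treated over control tumour was 0.57 for Apln, 0.66 for Angpt2 and 0.71 for Esm1, and the last no longer passed 1.5-fold. Ratios of the other comparisons without these subclusters are not given here, and the part of these markers in them is not told apart.

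Other genes of the same pathways, from lists that share members with the markers used to name tip-type cells below, were read in the same vessel cells. The shares of all measured genes against which their counts stand are 30.6% higher and 24.8% lower in ligated over normal, 31.4 and 31.7% in control tumour over ligated, and 12.3 and 27.8% in treated over control tumour. Single list genes are given without intervals. Vessel cells of the ligated pancreas held 189860 UMIs in all, so low CPM values there rest on few UMIs and their ratios are rough. Of 19 measured other tip cell genes, control tumour over ligated had 11 higher and 1 lower, with a median log2 ratio of 0.76 against -0.03 for all measured genes. Among the 11 were Inhbb, an activin subunit (258 against 57.9 CPM, 4.46-fold), the chemokine receptor Cxcr4 (115 against 31.6, 3.64-fold) and the sulfotransferase Chst1 (138 against 42.1, 3.27-fold). This was not particular to vessel cells. Duct-like cells had 11 higher and 2 lower of 15 in that comparison (median 0.87 against -0.03, with 21.3% of all genes higher). Neutrophil-like cells had 7 higher and 2 lower of 11 (0.85 against 0.44, with 47% higher). Fibroblast-like cells had 4 higher and 4 lower of 16, and macrophage/monocyte-like cells 1 higher and 7 lower of 14. In vessel cells the same list had 5 higher and 3 lower of 19 in ligated over normal (median 0.15 against 0.11), where the adhesion molecule Mcam stood 3.10-fold higher (395 against 128 CPM). In treated over control tumour it had 2 higher and 4 lower of 19 (median -0.06 against -0.22), counts near the shares of all genes, with Chst1 at 43.3 against 138 CPM (0.314) and Trp53i11 at 354 against 169 (2.10).

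Capillary partner genes had 0 higher and 7 lower of 10 in ligated over normal, where 24.8% of all genes were lower, at a median of -1.08 against 0.11. Fabp4, the fatty acid carrier of capillary endothelium, stood at 1791 against 4490 CPM (0.399), alongside the lower Plvap. The list had 2 higher and 5 lower of 10 in control tumour over ligated (median -0.75) and 5 higher and 1 lower of 9 in treated over control tumour, where 12.3% of all genes were higher and its median was 0.74 against -0.22.

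Vessel Notch genes, the partners of Dll4, had 6 higher and 0 lower of 10 in ligated over normal (median 0.62 against 0.11; 30.6% of all genes higher), with the ligand Jag1 at 205 against 77.7 CPM (2.64-fold). They had 0 higher and 6 lower of 10 in treated over control tumour (median -0.76 against -0.22; 27.8% of all genes lower), with the target gene Hes1 at 410 against 893 CPM (0.459). Genes that respond to tissue dissociation, a handling signal, had 0 higher and 7 lower of 16 in that comparison (median -0.42), and 1 higher and 8 lower in control tumour over ligated (median -0.57, where 31.7% of all genes were lower); their part in the vessel values was not tested. In control tumour over ligated the Notch list had 2 higher and 3 lower of 10 (median -0.31). Its lower values in treated over control tumour were not particular to vessel cells. In that comparison it had 6 lower of 8 in gastric-type epithelial-like cells (median -0.84 against -0.33) and 4 of 6 in macrophage/monocyte-like cells (-0.84 against -0.29). Duct-like cells had 1 higher and 7 lower of 11, fibroblast-like cells 1 higher and 2 lower of 7, and neutrophil-like cells 2 lower of 5.

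The other VEGF receptors and co-receptors Flt4, Nrp1 and Nrp2 had 0 of 3 past 1.5-fold in any of the 3 comparisons. Of the 2 other angiopoietin and Tie genes measured, 1 was lower in control tumour than in ligated pancreas: Ptprb, the phosphatase that restrains Tek, at 783 against 2318 CPM (0.338), lower together with Tek. The other VEGF ligands had 1 higher and 2 lower of 3 measured in control tumour over ligated, and 1 higher and 1 lower of 3 in treated over control tumour. Among them Vegfc, the growth factor of lymphatic vessels, stood lower in control tumour than in ligated pancreas (0.287). It stood at 48.4 against 21.2 CPM in treated over control tumour (2.29-fold). Hypoxia response genes had 8 higher and 3 lower of 19 in control tumour over ligated, where 31.4% of all genes were higher and 31.7% lower (list median 0.16), with the glycolytic enzyme Pgk1 at 290 against 36.9 CPM (7.86-fold). They had 0 higher and 5 lower of 18 in treated over control tumour (-0.36), the latter being the share of all genes. Apela, the other ligand of Aplnr, was not measured by this rule.

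Blood and lymphatic endothelial-like cells were clustered again without the 10 genes, so that their levels did not make the subclusters. Of 13 subclusters, 1 raised 8 of 13 tip or sprouting markers (Cxcr4, Nid2, Mcam, Inhbb and others), and its leading genes were Cxcl9, Ubd, Bmp2 and Ecm1. It held 0, 0, 53 and 72 cells. Apln stood at 255 CPM there, Esm1 at 248, Dll4 at 257 and Angpt2 at 111. In the control tumour Angpt2 was no higher in this subcluster (149 CPM) than in the other blood vessel cells (164). In the treated tumour it was higher there (88.9 against 65.6). Apln was at 0 CPM in the arterial-type subcluster and in capillary-type subcluster 0, and at 94.8 in the venous-type one.

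Esm1 did not mark the tip-type subcluster alone, as it stood at 357 CPM in capillary-type subcluster 2, where Apln stood at 49.5. Dll4 was as high in the arterial-type subcluster (252 CPM) as in the tip-type one, and low in the venous-type one (62.2). Aplnr was the reverse, at 308 CPM in venous-type and 57.3 in arterial-type cells. Plvap was highest in the capillary-type subclusters, at 3150 and 2849 CPM, as were Kdr (2648 and 1956) and Flt1 (4597 and 3191). Unnamed subcluster 7, led by immunoglobulin and haemoglobin genes, held 177 of its 188 cells from the control tumour, with Apln at 217 CPM and Esm1 at 267. Unnamed subcluster 11, which raised 7 of 7 cell cycle markers and 8 macrophage markers, had Apln at 248 and Angpt2 at 269 CPM.

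**Figure D4:**
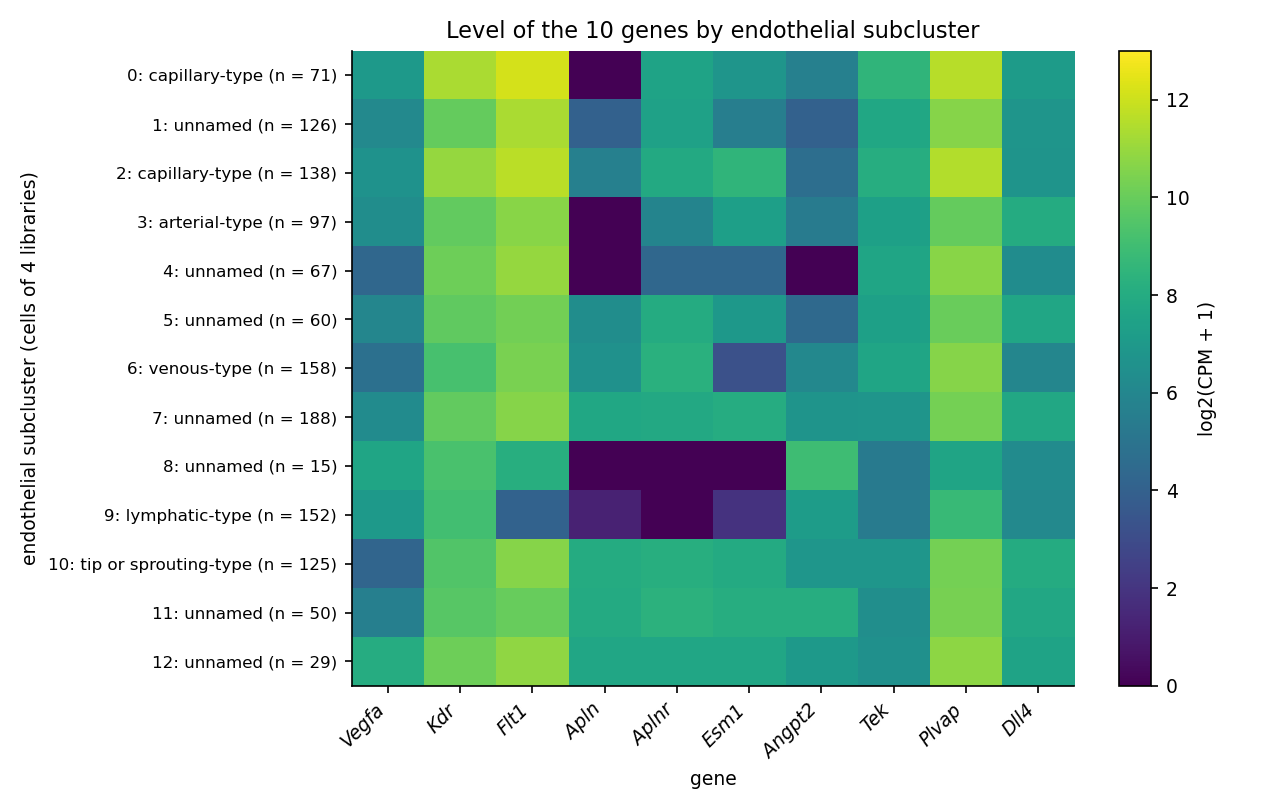
Level of the 10 genes in the 13 subclusters of endothelial-like cells, all libraries together, as log2(CPM + 1); brighter means higher. Kdr, Flt1 and Plvap peak in capillary-type subclusters, Apln and Dll4 in the tip-type one. Aplnr is highest in unnamed subcluster 11 (329 CPM) and, among the named ones, in the venous-type one (308 CPM).

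The tumours were also compared within parts of the vessel. In tip-type cells (72 treated against 53 control) Apln stood at 198 against 354 CPM (0.559 [0.430-0.726]), Esm1 at 176 against 374 (0.470 [0.360-0.613]) and Angpt2 at 88.9 against 149 (0.596 [0.398-0.893]). In the remaining vessel cells (239 against 344) the ratios were 0.344 [0.266-0.441], 0.515 [0.427-0.620] and 0.400 [0.304-0.522]. All 3 genes stood lower in the treated tumour in both parts. Different subclusters made up the remaining cells: subcluster 7 held 175 control and 10 treated cells, capillary-type subcluster 2 held 18 and 77, and subcluster 5, led by mitochondrial genes, held 10 and 43. Kdr was 0.568 [0.487-0.663] in tip-type and 0.829 [0.764-0.898] in the remaining cells. Plvap was 0.973 [0.863-1.10] in tip-type and 1.38 [1.29-1.47] in the remaining cells.

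Vegfa was mostly made outside the vessel. In the normal pancreas 94.6% of its 3810 UMIs came from duct-like cells. In the ligated pancreas duct-like cells gave 58.8%, fibroblast-like cells 24.0% and macrophage/monocyte-like cells 11.9% of 1392. Macrophage/monocyte-like cells gave 42.6% and neutrophil-like cells 26.6% of 27828 UMIs in the control tumour, and 62.2% and 18.6% of 23316 in the treated tumour. Gastric-type epithelial-like cells gave 12.3% and 7.51% in the tumours. These shares depend on how many cells of each class were captured.

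Per cell class, Vegfa in macrophage/monocyte-like cells stood at 40.9 [8.44-120], 469 [400-546], 554 [544-564] and 448 [441-456] CPM. The normal value rests on 3 UMIs in 26 cells. Ligated over normal was 11.5 [3.85-56.1], in a class where 42% of measured genes stood at least 1.5-fold higher. Control tumour over ligated was 1.18 [1.01-1.38] and treated over control tumour 0.810 [0.791-0.830], which equals the median gene of the class (-0.01 relative to it). Dissociation genes were lower in 10 and higher in 0 of 16 in ligated over normal macrophage/monocyte-like cells (median -0.98 against 0.32 for all genes, 19.6% of which were lower). In treated over control tumour they were lower in 12 and higher in 0 of 16 (median -1.04 against -0.29, with 27.2% of all genes lower); their part was not tested. Within the tumours Vegfa was highest in the macrophage cluster led by Arg1 and Mmp12, at 842 CPM in control (835 cells) and 634 in treated (2042 cells). It was lower in the Ccl8 and Folr2 cluster, at 388 and 252, and in the Ccr2 and Ly6c2 monocyte cluster, at 296 and 255. Different clusters held most of the class in each tumour: the cluster led by Nrg1 and Apobec1 had 2916 control and 114 treated cells, with Vegfa at 536 [520-552] and 342 [295-394] CPM.

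In neutrophil-like cells, of which the normal pancreas had 0, Vegfa stood at 190 [123-281] CPM in the ligated pancreas (25 UMIs), 763 [746-780] in the control tumour and 363 [353-374] in the treated tumour. The control tumour was highest, 4.01-fold [2.72-6.20] over ligated, where 47% of measured genes were higher by 1.5-fold. Treated over control was 0.476 [0.459-0.495], or -0.74 on the log2 scale relative to the median gene, where 33.5% of genes were lower by 1.5-fold. The classes held different clusters: cluster 8 had 4558 control and 99 treated cells, and the Siglecf-led cluster 22 had 171 and 3761. Within each neutrophil cluster the treated tumour was still lower: 458 against 815 CPM in cluster 8, 451 against 843 in cluster 22, 429 against 958 in the Ngp and Camp cluster, 220 against 469 in the Rsad2 cluster and 230 against 351 in cluster 20. Vegfa in lymphocytes stood lower too, at 43.0 CPM in the treated against 90.9 in the control tumour. With the pooled profile of each library subtracted, the neutrophil ratio was 0.466. Dissociation genes were lower in 14 and higher in 0 of 16 in these neutrophils; their part was not tested.

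Fibroblast-like cells held Vegfa at 129 [102-162], 175 [157-195], 168 [162-175] and 109 [101-118] CPM. The treated tumour stood 1.55-fold lower than the control tumour (0.647 [0.591-0.706]), in a class where 25% of genes were lower by 1.5-fold, and relative to the median gene the ratio was 0.78. Dissociation genes were lower in 9 and higher in 0 of 16 in these fibroblast-like cells (median -0.75 against -0.27). Duct-like cells stood at 382 [369-394], 371 [346-397], 269 [233-308] and 181 [155-210] CPM, a step down only in the tumours, where 88 and 83 duct-like cells remained. Gastric-type epithelial-like cells stood at 215 [208-223] in the control and 145 [138-152] in the treated tumour (0.673 [0.635-0.713]). In treated over control tumour dissociation genes were lower in 9 and higher in 0 of 16 in each of these 2 classes too (medians -0.62 and -0.75), where 32.5 and 30.1% of all genes were lower; their part in the Vegfa values was not tested.

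In the control tumour the order of Vegfa was neutrophil-like, then macrophage/monocyte-like and mast or basophil-like cells (554 and 522 [388-688], which do not differ beyond counting error), then NK or innate lymphoid-like cells (306 [267-348]). Erythroid-like, duct-like, gastric-type, lymphatic, acinar-like, dendritic-like (196 [183-210]) and fibroblast-like cells followed, most of them with intervals that overlap their neighbour's. In the treated tumour mast or basophil-like (509 [450-575], 163 cells) and macrophage/monocyte-like cells led, with overlapping intervals, and neutrophil-like cells came after them.

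**Figure D5:**
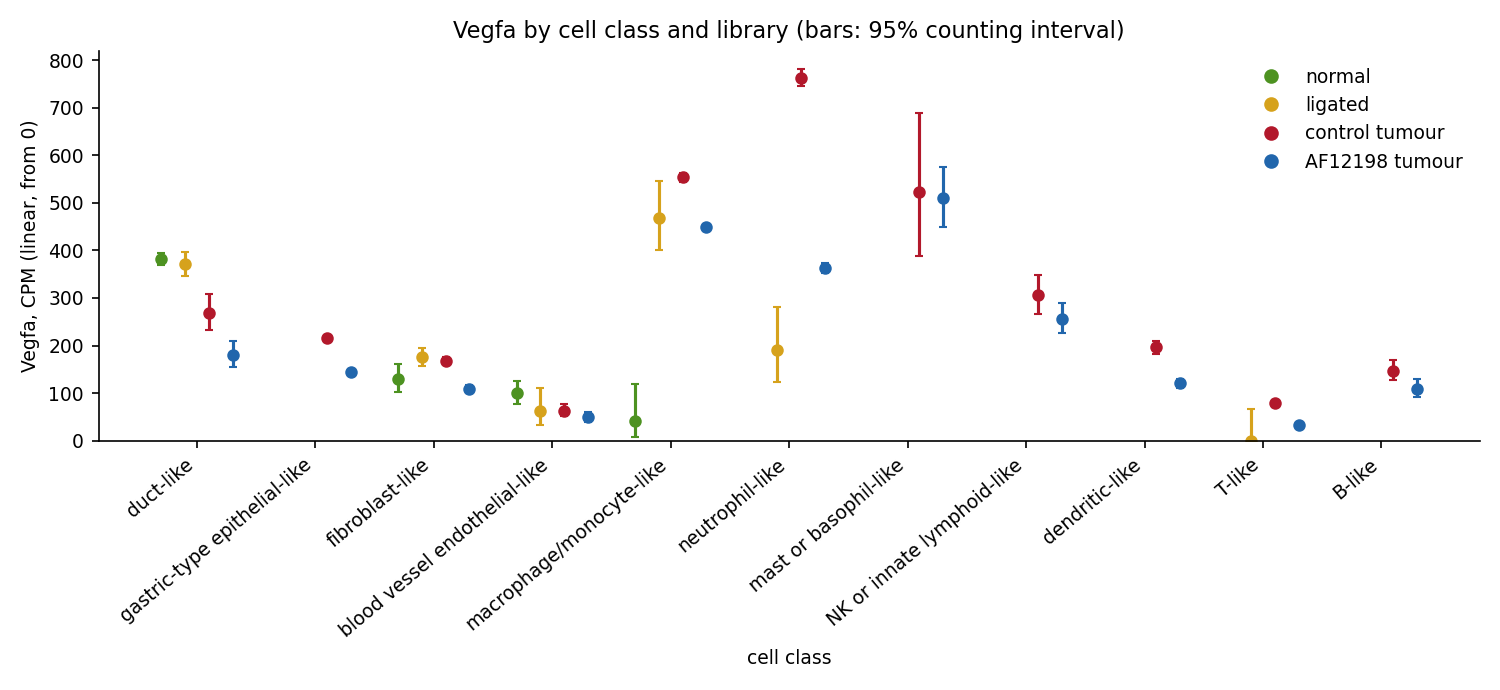
Vegfa CPM by cell class and library with 95% counting intervals. Neutrophil-like cells reach 763 CPM in the control tumour and 363 in the treated tumour, and macrophage/monocyte-like cells lie between 448 and 554 CPM in all libraries but the normal pancreas.

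Outside the endothelium several of the receptors had a second site. Flt1 stood at 77.9 [73.7-82.4] and 67.6 [63.0-72.3] CPM in gastric-type epithelial-like cells of control and treated tumour, found in 31.3 and 27.2% of the cells against 0.986 and 0.778% of lymphocytes. These cells held 24.9 and 18.5% of all Flt1 UMIs of the tumours, at median depths of 5333 and 3986 UMIs. Flt1 also stood at 17.7 [16.0-19.6] and 11.7 [10.6-13.0] CPM in macrophage/monocyte-like cells, which are known to carry it, against 4.12 and 3.29 in lymphocytes.

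Fibroblast-like cells differed by gene. Kdr stood at 8.30, 7.86, 31.2 and 14.0 CPM there, the control tumour being 3.97-fold [2.38-7.15] over ligated and treated over control 0.449 [0.350-0.570]. Tek stood at 33.2, 32.5, 2.76 and 2.07 CPM, which puts both pancreas libraries far above both tumours, with the control tumour 11.8-fold lower than ligated (0.0848 [0.0551-0.129]). In the ligated pancreas 51.7% of all Tek UMIs came from fibroblast-like cells. Apln stood at 4.98, 12.6, 21.5 and 20.9 CPM, and unlike in vessel cells treated over control was 0.971 [0.779-1.20]. Fibroblast-like cells gave 24 of 28 Apln UMIs in the ligated pancreas and 38.5 and 35.0% of those of the tumours. Plvap and Flt1 stood at 54.8 CPM each in normal fibroblast-like cells against 7.33 and 4.19 in ligated ones, and both are in vessel cells at far higher levels; the part of free RNA was not tested.

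Lymphatic endothelial-like cells, 38, 101 and 30 in the ligated, control and treated libraries, held Angpt2 at 113, 269 and 161 CPM. Control over ligated was 2.39 [1.42-4.27] and treated over control 0.596 [0.421-0.836], the same order as in blood vessel cells. Kdr stood at 702, 531 and 511 CPM there and Plvap at 424, 259 and 543, the treated tumour being 2.10-fold [1.63-2.71] over control. The unnamed Rgs5-led cluster (97 and 39 tumour cells), which raised 11 of 12 endothelial and 11 of 12 pericyte markers, held Flt1 at 355 and 566 CPM, Plvap at 179 and 466 and Esm1 at 19.2 and 125, the last from 2 cells in the treated tumour. The dendritic-like cluster 27, led by Siglech and Ccr9, raised 4 of 11 dendritic and 3 of 10 T cell markers and held Kdr at 106 [74.0-146] CPM in the control and 10.0 [2.73-25.6] in the treated tumour (36 and 4 UMIs), and Dll4 at 93.9 [64.2-133] and 52.6 [32.6-80.4]. Angpt2 and Dll4 were low in gastric-type epithelial-like cells, at 6.86 and 4.39 CPM and at 4.91 and 1.66 CPM. Aplnr gave 61 UMIs in fibroblast-like cells of the control tumour (4.42 CPM) and 26 in the Rgs5-led cluster of the treated tumour (72.5 CPM), and at most 20 in any other class outside the vessel.

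Genes with the most similar pattern were sought over 44 profiles of class and library by Pearson correlation of log2(CPM + 1), a description over profiles that share libraries. Vegfa was followed most closely by Atp6ap2 (0.811) and Atp6ap1 (0.804). Kdr went with Adgrf5 (0.942), Flt1 with Ptprb (0.898), Aplnr with Ccdc85a (0.957), Tek with Tmem204 (0.934), Plvap with Adgrf5 (0.970) and Dll4 with Nos3 (0.946). For the remaining tip cell genes the closest were Sparcl1 (0.838) and Prnd (0.836) for Apln, Ssu2 (0.903) for Esm1 and Cldn5 (0.855) for Angpt2.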

How the data were processed

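The authors deposited 1 matrix of UMI counts per library, made from 10x Genomics 3' libraries (v3 chemistry) per the labels' protocols, and with Cell Ranger 6.0.0 (genome mm10), per the submitters' processing notes. How cells were called is not stated there. From the normal pancreas to the treated tumour there were 1844, 1165, 23189 and 21840 barcodes, and UMI totals were 11350597, 5360054, 95779324 and 96886820.

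Cells with at least 250 genes, 500 UMIs and at most 20% mitochondrial UMIs were kept. Scrublet calls (3, 0, 2110 and 1018 cells) were removed. Counts were clustered with Scanpy 1.11.5 (2000 variable genes without the 10 described genes, 40 principal components, 20 neighbours, Leiden resolution 1.0), giving 31 clusters. A cluster was named from at least 3 markers raised 2-fold in at least 10% of its cells, and left unnamed if it raised 5 or more markers, and 65% of the list, of another class too; that last threshold was chosen after the data had been examined. Names end in -like, since no cell was identified otherwise.

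Each group was 1 library, so no test was made. Ratios of CPM carry exact conditional intervals, CPM exact Poisson and shares exact Clopper-Pearson ones (SciPy 1.17.1), all at 95%; the ratio code was tested on simulated data. Genes and lists were chosen with earlier results of these data known. All 10 genes are named. List genes are named from those past 2-fold with at least 20 CPM in 1 library and an interval without 1, and another class is described where a gene has at least 20 UMIs in 1 library. Individual clusters of a class were chosen after their values were seen. Alternatives were the cell filter, doublets, resolution, variable genes, CPM denominator, cell weights, free RNA, lymphatic cells, low-value filter and thinning; scaling to the median gene and leaving out mixed subclusters were added after seeing the data.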

Additional observations from a re-analysis of the deposited data

How the results depend on the processing

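No paired analysis was possible because each group is 1 library. Depth limits the ligated pancreas most, with 92 vessel cells and 1 to 12 UMIs for Apln, Angpt2, Esm1 and Vegfa. Of the values for single genes under the alternatives, 424 stayed within their counting interval, 66 moved outside it and 2 reversed: Esm1 in ligated over normal vessel cells was 0.626 with cells weighted equally and 0.906 with lymphatic clusters kept, against 1.60. The cause was not tested. Of the 10 genes, 5 passed 1.5-fold in ligated over normal vessel cells, and 3 with cells weighted equally. In control tumour over ligated 5 passed, and 3 with lymphatic clusters kept. In AF12198-treated over control tumour 3 passed, within 1.5 times of this under all alternatives, a band that the loss of 1 gene does not leave. Of these 3, Esm1 no longer passed with cells weighted equally or without the mixed subclusters. Vegfa passed in 4 comparisons of its 5 named classes, in 2 at resolution 2.0 and in 7 with equal weights.

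With doublets kept, Vegfa in vessel cells was 2.14 for control tumour over ligated and 0.55 for treated over control. The share of vessel cells with at least 2 of 4 tip cell genes follows depth by construction. Each thinned value of this share below is from a single random draw, so values also differ between settings by the draw. In the normal pancreas it was 1.09%, 3.95% without thinning, 0.658% at 500 and 4.31% at 2000 UMIs, 2.13% at resolution 0.5, 1.68% with the stricter cell filter, 1.67% at resolution 2.0 or with the 10 genes allowed among the variable genes, and 19.1% for at least 1 gene. In the ligated pancreas it was 1.64%, 3.26% without thinning, 0% at 500 and 3.23% at 2000 UMIs, 0% with lymphatic clusters kept and 21.3% for at least 1 gene. In the control tumour it was 9.33%, 27.5% without thinning, 5.04% at 500 UMIs, 20.8% at 2000 UMIs and 34.9% for at least 1 gene. In the treated tumour it was 5.88%, 25.7% without thinning, 1.29% at 500 and 9.17% at 2000 UMIs, 3.54% with the stricter cell filter, 3.13% with lymphatic clusters kept and 30.8% for at least 1 gene. With subclusters at resolution 0.5, the tip-type subcluster held Apln at 219 CPM (255 at resolution 1.0) and Esm1 at 194 (248).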
